A study of Mus musculus with 10 samples.

Results

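A set of 10 genes of the JAK and STAT pathway, by which cytokine and growth hormone receptors signal to the nucleus, were followed in mouse calf muscle with and without muscular dystrophy. They were the transcription factors Stat3, Stat5a, Stat5b and Stat6, the kinases Jak1 and Jak2, the inhibitors Socs2, Socs3 and Cish, and the interleukin-4 receptor chain Il4ra. Every probe set that the platform annotation assigns to one of these genes alone was taken, which gave 15 of the 12488 probe sets on the array. All 10 genes were covered, of 8251 genes named by the annotation. The samples were total RNA of gastrocnemius muscle from male mice aged 16 weeks, with 5 arrays for normal mice, called control, and 5 for mdx mice. The mdx strain carries a mutation in the dystrophin gene that stops translation early, in every cell of the animal, so that muscle fibres lack functional dystrophin and go through cycles of degeneration and regeneration. The sources used here do not give the strain of the normal mice or any treatment. Nor do they say that each array stands for another animal. The p-values set the group difference against the spread between these arrays, which may be technical.

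When a cytokine binds its receptor, kinases of the Janus family that sit on the receptor's tails phosphorylate each other, the tails and then STAT proteins, which pair, enter the nucleus and bind DNA. STAT3 carries signals of the interleukin-6 family, STAT5A and STAT5B those of growth hormone, prolactin and several interleukins, and STAT6 those of interleukin-4 and interleukin-13. Among the genes that active STATs switch on are the SOCS proteins and CISH, which bind the receptor or its kinase and end the signal. Levels of their transcripts are therefore used as a readout of recent signalling. In muscle the pathway is known from satellite cells, from fibres that respond to growth hormone and from the macrophages that enter injured tissue. The arrays measured transcripts and not phosphorylated proteins.

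The labelled tissue was checked against its markers. Of 11 fast skeletal muscle genes 10 were tested, and 7 were lower and 0 higher in mdx. Their summed intensity was still 175762 to 272584 in mdx and 224627 to 385512 in control, and only Myh2 lay below the noise level on all 10 arrays. Of 15 tested macrophage markers 14 were higher in mdx, with a summed intensity of 5600 to 9771 in control against 72230 to 97194 in mdx. Of 9 markers of satellite cells and regenerating fibres 5 were higher, with sums of 4759 to 5282 against 19286 to 29130. Of 8 fibroblast markers 6 were higher and 2 lower, with sums of 41710 to 54766 against 82672 to 95930. Lymphocyte markers gave 1677 to 3143 in control and 2235 to 2548 in mdx, with Cd3e, Cd3d, Cd3g, Cd8a and Cd79a below the noise level on all 10 arrays. Of 5 tested lymphocyte markers 1 was higher and 2 were lower, so the sum hides opposite changes. Thy1 of this list, which other cells also make, had means of 287 ± 136 in control and 1087 ± 108 in mdx. Sums of the other lists were 1376 to 2405 against 3200 to 3775 for granulocytes and mast cells, 6898 to 8439 against 6061 to 7362 for endothelium and 7171 to 9074 against 7834 to 9989 for adipocytes. Of the granulocyte and mast cell markers 7 were tested and 2 were higher. Among 8 tested endothelium markers 1 was higher and 2 were lower, and among 3 tested adipocyte markers 1 was higher and 0 lower. S100a9, Mpo, Ltf, Mcpt4 and Kit of that list lay below the noise level on all 10 arrays. The mean of each array, trimmed at both ends, was 800.7 to 800.9 on 9 arrays and 723.1 on mdx replicate 1. The actin ratio, the signal near the 3' end of the transcript over that near its 5' end, is a sign of RNA quality and was 1.07 to 1.16 in control and 0.953 to 1.08 in mdx. In a piece of tissue, fewer cells of a type and less RNA per cell cannot be told apart.

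Of the 15 member probe sets, 11 passed the filter on dim values and were tested, which left Il4ra and the second probe sets of Jak2 and Socs3 outside. At an adjusted p below 0.05 by limma, 3 probe sets were higher in mdx, for Stat6, Stat3 and Socs3, and 1 was lower, for Jak2. These 4 of 11 stand beside 33.6% called of all 7612 tested probe sets. By direction they are 27.3% and 9.09% of the members tested, where 15.8% of all tested probe sets were higher and 17.8% lower. The hybridization controls are labelled RNAs added at hybridization, so they do not measure the RNA content of the tissue. Scaled to them, the members split into 7 higher and 0 lower. All probe sets split into 3348 higher and 137 lower, against 1202 and 1352. The median log2 change of the 11 was 0.07, beside -0.03 over all tested probe sets. The groups did not overlap for 2 of the 11, Stat6 and Jak2, against 25.1% of all tested. Log2 changes are mdx minus control on the scale of log2(intensity + 372), where 372 is the noise level, the root mean square of all values below 0. They understate the change of dim genes.

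**Figure D1:**
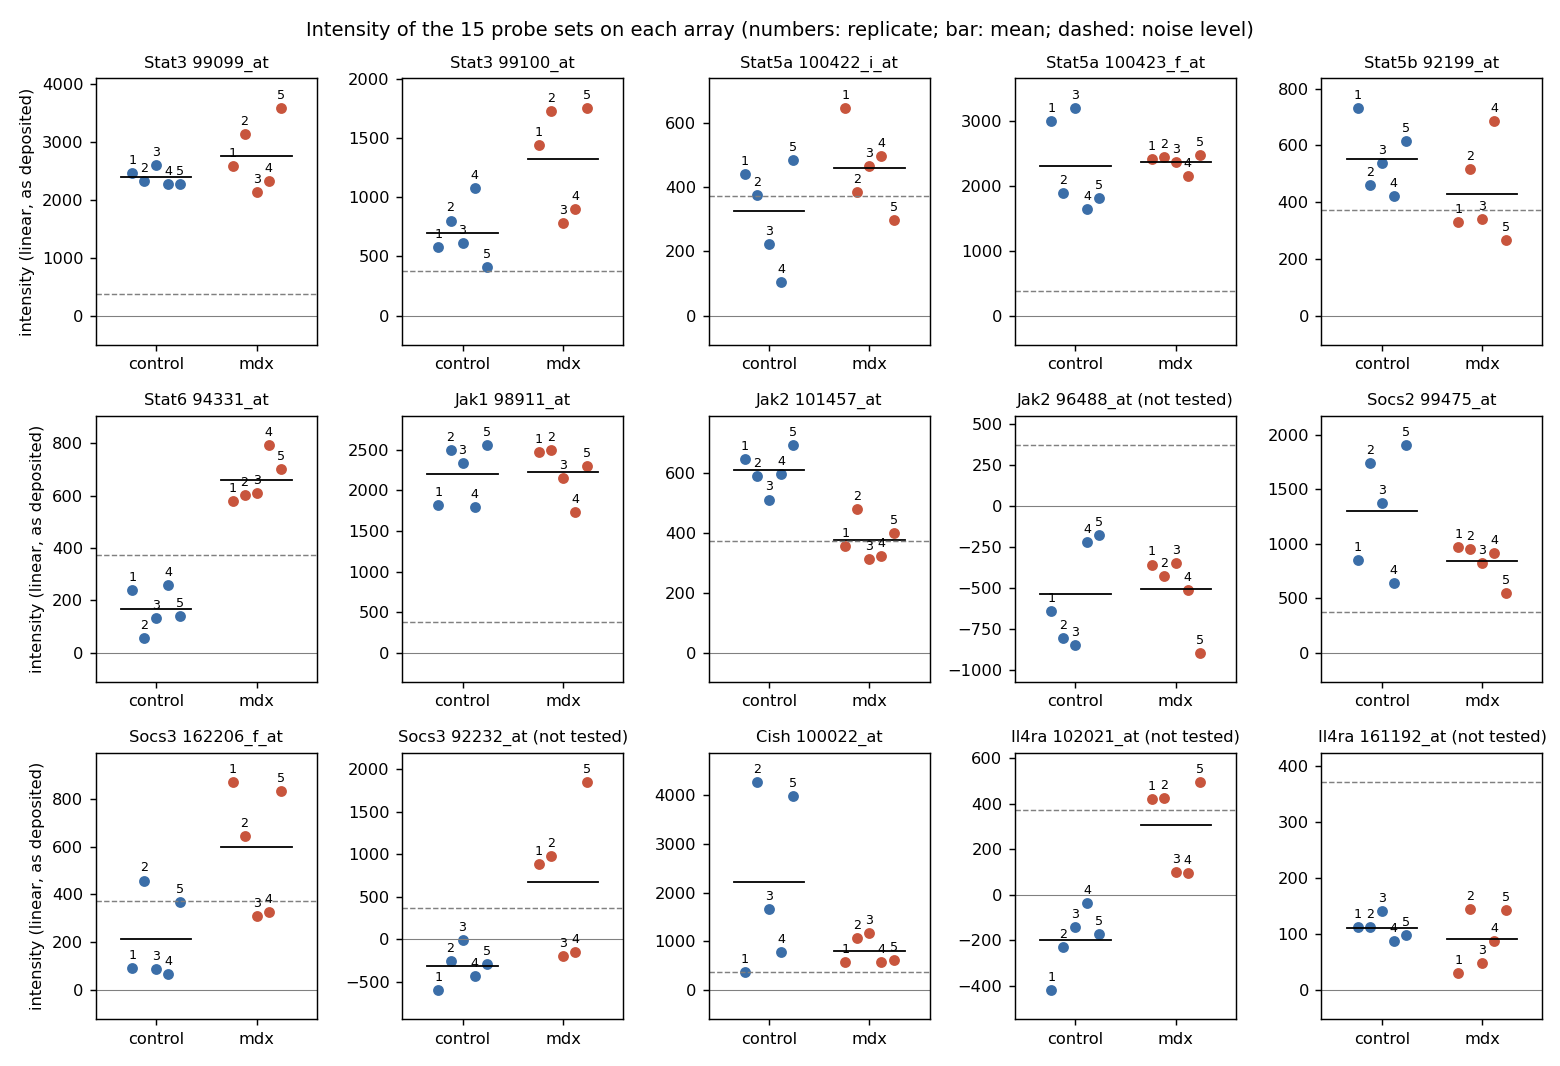
Deposited intensity (linear scale, y axis) of the 15 member probe sets on the 5 control and 5 mdx arrays, with each point numbered by replicate, a bar at the group mean and a dashed line at the noise level of 372. All 5 mdx points lie above all control points for Stat6 and for 1 Il4ra probe set, all 5 lie below for the measured Jak2 probe set, and the control points of Cish run from 375 to 4279.

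**Figure D2:**
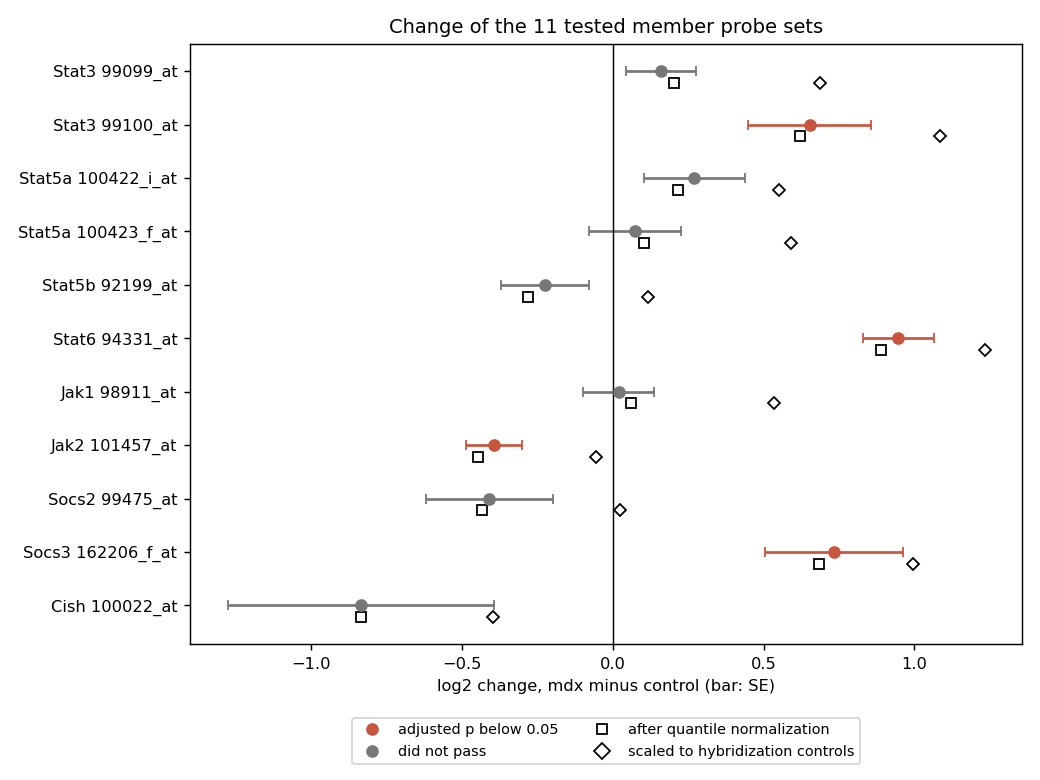
Log2 change, mdx minus control, of the 11 tested member probe sets, with bars of the standard error (SE) and red for an adjusted p below 0.05. Open squares and diamonds give the change after quantile normalization and after scaling to the hybridization controls, which moved the median of all tested probe sets to 0.33 and Jak2 to -0.05.

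Stat6, the factor of interleukin-4 and interleukin-13 signalling, was higher in mdx with the smallest p of the members. On the control arrays its intensity was 238, 56.5, 134, 259 and 141, and on the mdx arrays 579, 603, 611, 795 and 703. Every mdx value was above every control value, and no mdx array stood apart. All control values were below the noise level, so the rise was at least 1.75-fold. The group means were 166 ± 82.8 and 658 ± 89.8 (SD, n = 5 each), and the change of 0.95 on the log2 scale had an SE of 0.12 (limma adjusted p = 5.26e-05). It was called whichever array was left out, at 0.87 to 1.01. The size depended on the constant added before the log, with 0.63 at 2 times the noise level. Macrophage markers rose in the same arrays, as given above, and their part in the level of Stat6 was not tested.

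Stat3, which carries signals of interleukin-6, leukaemia inhibitory factor and oncostatin M, was measured by a bright and a dimmer probe set that gave different calls. The dimmer stood at 578, 802, 610, 1074 and 406 in control and 1442, 1728, 779, 900 and 1756 in mdx. Replicates 1, 2 and 5 of mdx were above all controls, and replicates 3 and 4 lay within their range. The means were 694 ± 255 and 1321 ± 458, which is 0.65 on the log2 scale (SE 0.20; adjusted p by limma 0.0258). This call was lost by the exact permutation test (adjusted p = 0.103) and when dim probe sets were not filtered out (adjusted p = 0.0812). It was also lost without control replicates 1, 3 or 5 (adjusted p = 0.0531, 0.0519 and 0.0648) and without mdx replicates 1, 2 or 5 (0.0581, 0.0653 and 0.0618), at log2 changes of 0.55 to 0.63. The bright probe set gave 2461, 2336, 2598, 2274 and 2282 in control and 2582, 3134, 2137, 2327 and 3599 in mdx. The groups overlapped and it did not pass (log2 change 0.16, SE 0.12, adjusted p = 0.327), although replicates 5 and 2 of mdx were again the highest of the 10 arrays. After scaling to the hybridization controls it passed, at 0.69 (adjusted p = 0.00277).

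Stat5a and Stat5b, near-identical proteins from genes that neighbour each other and Stat3 on chromosome 11, did not pass with any probe set as scaled by the deposited values. The brighter Stat5a probe set ran from 1637 to 3201 in control and from 2155 to 2473 in mdx, with means of 2306 ± 735 and 2366 ± 126 (log2 change 0.07, adjusted p = 0.758). Controls 1 and 3, at 3001 and 3201, lay above all mdx arrays, and the other 3 controls below them. Its second probe set had means of 326 ± 159 and 459 ± 131 (log2 change 0.27, adjusted p = 0.245). For Stat5b the means were 554 ± 126 and 428 ± 172, a log2 change of -0.23 (SE 0.15, adjusted p = 0.268), with mdx replicates 1, 3 and 5 below all controls. The platform marks both Stat5a probe sets as less specific or incomplete. How far each probe set separates Stat5a from Stat5b was not tested. Scaled to the hybridization controls, both Stat5a probe sets were called higher, the brighter at 0.59 (adjusted p = 0.0123) and the second at 0.55 (adjusted p = 0.0185).

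Of the kinases, Jak2 fell and Jak1 did not pass. Jak2, the kinase of the growth hormone, erythropoietin and interferon-gamma receptors, stood at 646, 589, 510, 595 and 693 in control and at 357, 478, 313, 323 and 399 in mdx. All 5 mdx arrays were below all controls, and the closest pair was control 3 at 510 and mdx 2 at 478. On 3 mdx arrays the value was below the noise level, so the size of the fall is not well measured. The means were 607 ± 68.4 and 374 ± 67.2, which is -0.39 on the log2 scale (SE 0.09; adjusted p by limma 0.00553). The call held without each array in turn, at -0.44 to -0.36, but not after scaling to the hybridization controls, where the change was -0.05 (adjusted p = 0.752). That scaling called Jak1 higher, at 0.53 (adjusted p by limma 0.0128). A second Jak2 probe set was below 0 on all 10 arrays and gave no measurement. Jak1, the kinase shared by the interleukin-6 family, the interferon receptors and the interleukin-4 receptor, had means of 2204 ± 370 and 2231 ± 312. Its log2 change was 0.02 (SE 0.12, adjusted p = 0.923), and both groups covered nearly the same range, 1799 to 2564 and 1733 to 2502.

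Socs3 and Cish are shown with sequence near a start of each gene, since both are known to be switched on by STAT proteins, and the classical STAT site is the palindrome TTCNNNGAA. RefSeq windows of GRCm38.p6 from 250 bases before to 50 after a transcript start were at hand for 9 of the 10 genes (11 windows), all but Socs2. Capitals mark each match to TTCNNNGAA, which reads the same on both strands. The first sequence is 30 bases around the Cish start of that table, at chr9:107296654-107296683 on the plus strand. The second is 30 bases of the Socs3 window, at chr11:117969502-117969531 on the minus strand. The Socs3 gene as RefSeq records it reaches further upstream than the start used for its window, so the whole window lies inside the gene's span and the stretch may be transcribed.
Cish: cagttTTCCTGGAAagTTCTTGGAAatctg
Socs3: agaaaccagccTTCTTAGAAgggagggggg
In the Cish window 2 matches lie within the first 20 bases of the transcript, and in the Socs3 window 1 match lies 154 to 146 bases before the start used for that window, not before the outermost start of the gene. A window with at least 1 match is not rare, at 8.30% of 32851 windows of this length, while 2 or more matches were in 0.457%. The other 9 member windows held no match to these letters, and none of the 11 held TTC and GAA with 4 bases between, the spacing that STAT6 prefers, which was in 6.95% of all windows. A match is a description of the sequence and says nothing on binding in this tissue.

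Cish, an early inhibitor induced by growth hormone and other STAT5 signals, had one of the widest spreads between control arrays of all probe sets tested. Its intensity was 375, 4279, 1660, 785 and 3982 in control and 573, 1058, 1175, 581 and 614 in mdx. Controls 2, 5 and 3 were above all mdx arrays, control 1 was the lowest of all 10, and the mdx arrays ran over a narrower range than the controls. The SD of the log2 values was 1.16 in control, the sixth highest of the 7612 tested probe sets, against a median of 0.17 over all of them. In mdx it was 0.35, with 10.4% of tested probe sets above it. The means were 2216 ± 1811 and 800 ± 292, and the log2 change of -0.84 (SE 0.44) did not pass (adjusted p = 0.173). Without control replicate 1 it passed, at -1.20 (adjusted p = 0.026), and without control replicate 2 or 5 it was -0.54 or -0.56.

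Socs2, another target of growth hormone and STAT5 whose loss makes mice overgrow, took nearly the same order among the controls. It stood at 849, 1739, 1371, 639 and 1907 in control and 966, 953, 826, 911 and 548 in mdx. Controls 5, 2 and 3 were above all mdx arrays for Socs2 as for Cish, and controls 1 and 4 were the lowest controls for both. The control SD on the log2 scale was 0.51, with 3.73% of tested probe sets above it, and the mdx SD was 0.23, with 32.2% above. The means were 1301 ± 549 and 841 ± 173 and the log2 change was -0.41 (SE 0.21, adjusted p = 0.161). It passed without control replicate 4, at -0.57 (adjusted p = 0.0309), and stood at 0.03 (adjusted p = 0.937) after scaling to the hybridization controls. The difference in spread between the groups was noticed in these values and was not tested. The labels do not give the time of day, feeding or hormone level at sampling.

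**Figure D3:**
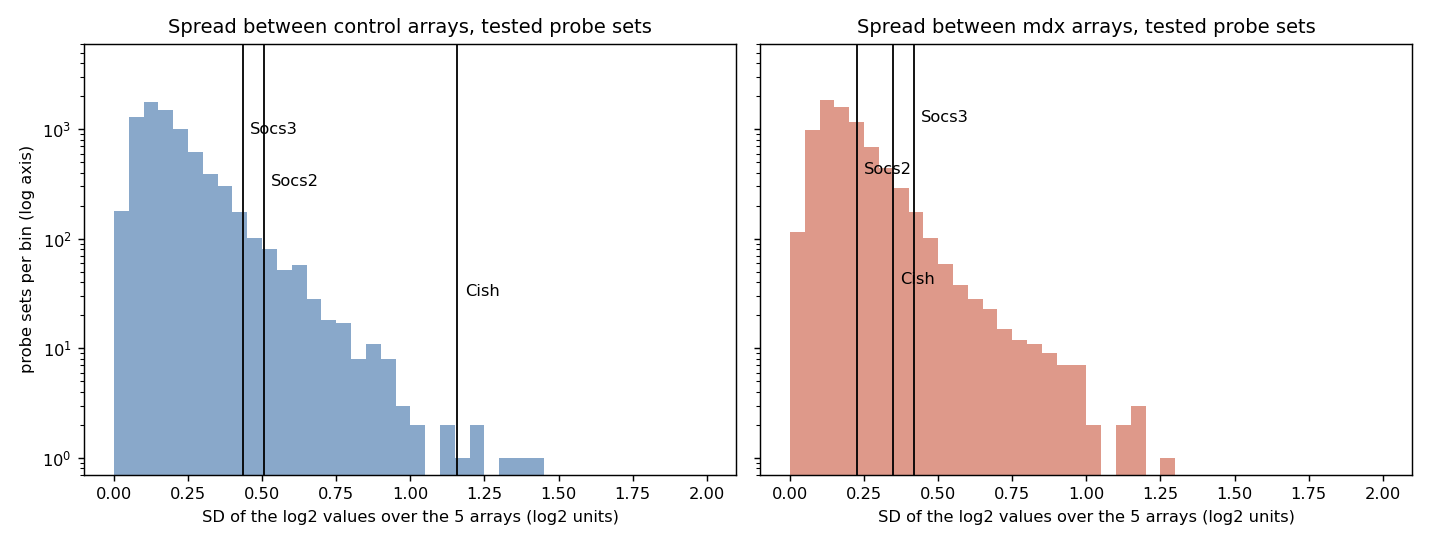
Number of tested probe sets (y axis, log scale) by the SD of their log2 values over the 5 control arrays (left) and the 5 mdx arrays (right), with lines at Cish, Socs2 and the tested Socs3 probe set. Cish lies at 1.16 in the far tail of the control panel and at 0.35 in the mdx panel.

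**Figure D4:**
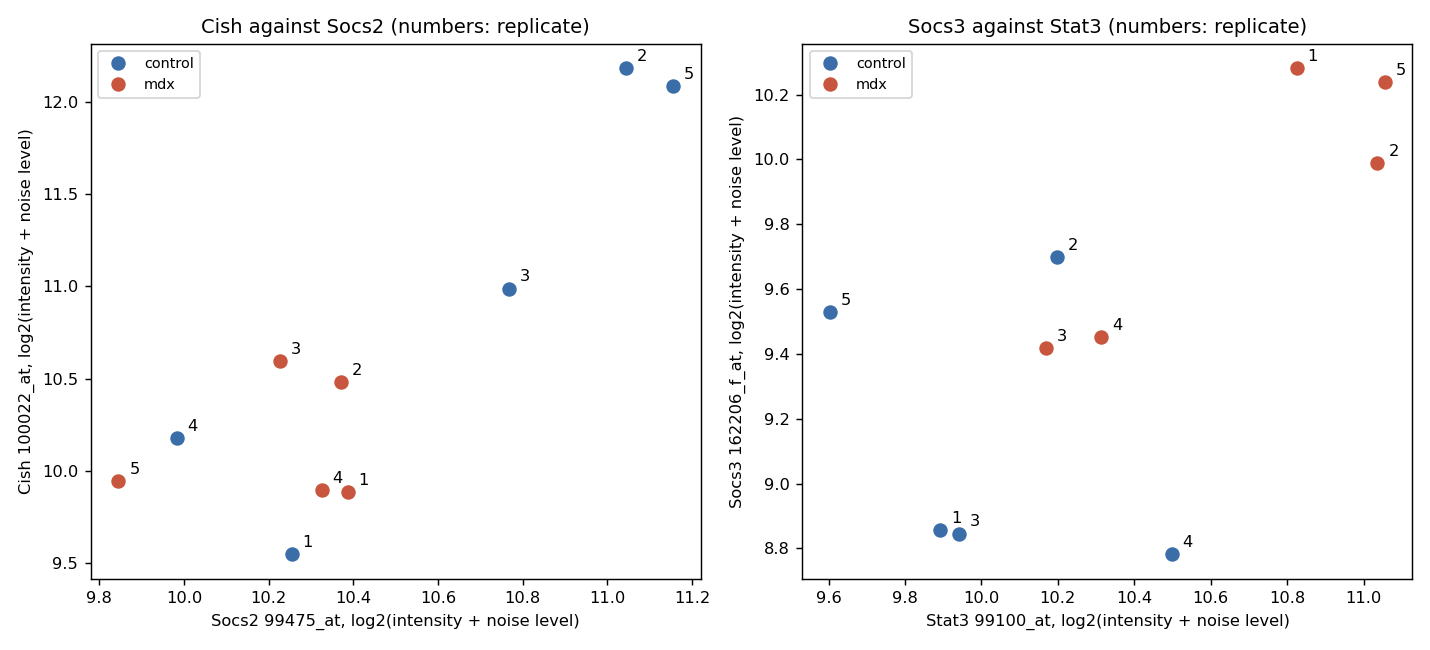
Cish against Socs2 (left) and Socs3 against the dimmer Stat3 probe set (right), each as log2(intensity + noise level), with control points in blue and mdx points in red numbered by replicate. Controls 2, 5 and 3 lie at the upper right for Cish and Socs2, and mdx replicates 1, 2 and 5 at the upper right for Socs3 and Stat3.

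Socs3, the inhibitor that ends signals of interleukin-6 type receptors, was higher in mdx with wide spread. The tested probe set, which the platform also marks as less specific, gave 91.5, 458, 87.6, 67.6 and 367 in control and 872, 644, 311, 327 and 835 in mdx. It lay below the noise level on 4 control and 2 mdx arrays. Replicates 1, 2 and 5 of mdx were above all controls, and 3 and 4 lay below controls 2 and 5. The means were 214 ± 184 and 598 ± 269, which is 0.73 on the log2 scale (SE 0.23; adjusted p by limma 0.0264). The exact permutation test did not call it (adjusted p = 0.118), nor did the fit with dim probe sets kept (adjusted p = 0.0854). The call was lost without control replicates 1, 3 or 4 (adjusted p = 0.0601, 0.0621 and 0.0634) and without mdx replicates 1, 2 or 5 (0.0677, 0.0553 and 0.0616), at 0.63 to 0.70. The second probe set was not tested. It read -592, -254, -4.84, -433 and -290 in control, all below 0, and 887, 983, -200, -143 and 1851 in mdx, so that the same 3 mdx arrays carried signal. Fitted with no filter, its log2 change was 1.24 (SE 0.50, adjusted p = 0.131). The control values were all set to 0 in that fit, so their spread was not measured.

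Il4ra, the receptor chain through which interleukin-4 and interleukin-13 reach STAT6, was too dim to be tested. The probe set with signal read -418, -228, -143, -36.4 and -174 in control and 421, 423, 98.8, 97.6 and 496 in mdx. The groups did not overlap, and mdx replicates 1, 2 and 5 were again the highest. Only those 3 arrays were above the noise level, so no fold is given. In the fit with no filter it was higher in mdx (log2 change 0.82, SE 0.19, adjusted p by limma 0.0141), where 10% of all 12422 probe sets were called higher. All 5 control values were set to 0 in this fit, so the spread between control arrays was not measured and does not enter the SE or the p-value. The other Il4ra probe set did not show this. It ran from 87.2 to 141 in control and from 30.7 to 145 in mdx, below the noise level on all 10 arrays (log2 change -0.07, adjusted p = 0.64).

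The 5 mdx arrays thus fell in nearly the same order for Stat3, Socs3 and Il4ra. Replicates 1, 2 and 5 were above replicates 3 and 4 for both probe sets of Stat3, both of Socs3 and the first of Il4ra. Stat6 did not follow it, with replicates 4 and 5 highest, at 795 and 703. The summed macrophage markers did not follow it either, at 72230, 89365, 93106, 97194 and 92265 in replicates 1 to 5. The summed granulocyte and mast cell markers did, at 3662, 3775 and 3694 in replicates 1, 2 and 5 against 3358 and 3200, and so did the lymphocyte markers, at 2430, 2514 and 2548 against 2235 and 2313. In each of these lists 5 markers lay below the noise level on all 10 arrays, so the small differences between these sums are not firmly measured. The markers of satellite cells and regenerating fibres ran the other way, at 22518, 19765 and 19286 against 29130 and 25233. The actin ratio was 1.02, 0.991 and 0.953 in replicates 1, 2 and 5 and 1.04 and 1.08 in 3 and 4. The order was read from these values, and the part of cell content and RNA quality in it was not tested.

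The tested probe sets whose log2 values over the 10 arrays were most like those of the 3 members with the smallest p were found by Pearson correlation, with no test. A large part of any such likeness is the difference between the groups, so the correlation after removal of the group means is given too. Most like Stat6 were the lysosomal protein gene Ctsa (0.99, and 0.86 within groups), the surface glycoprotein gene Thy1 (0.98, 0.82) and the lysosomal cholesterol carrier gene Npc2 (0.98, 0.82). Npc2 rose from 1198 ± 273 to 4967 ± 560 and Ctsa from 1173 ± 132 to 2331 ± 260. Most like Jak2 were the methyltransferase gene Smyd2 (0.97, 0.92), the surface antigen gene Cd24a (0.95, 0.73) and the mitochondrial ribosome gene Mrps28 (0.94, 0.73). Cd24a fell from 15837 ± 915 to 8111 ± 1204, a log2 change of -0.94, though not past the threshold after scaling to the hybridization controls (-0.36, adjusted p by limma 0.0683). Most like the dimmer Stat3 probe set were the AMP deaminase gene Ampd3 (0.91, 0.84), Tex261 (0.89, 0.85) and the collagen receptor gene Ddr2 (0.89, 0.80). Ampd3 rose by 0.43 (adjusted p = 0.0056), and Ddr2 by 0.50 (adjusted p = 0.0321), a call lost in turn without control replicates 1, 3 or 5 and without mdx replicates 2 or 5 at 0.42 to 0.46.

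The rest of the pathway was read from 5 lists with 126 genes, of which 102 had a probe set and 62 were tested, each by its brightest probe set. Of these, 19 were higher and 3 lower, where 16.1% of all 5767 tested genes were higher and 18.6% lower. The filter admits genes that are bright enough on the mdx arrays alone, and such a gene had to differ. With a filter on the mean over all arrays 10 were higher and 3 lower, and after scaling to the hybridization controls 32 and 0. The median log2 change of the 62 was 0.08, beside -0.04 over all tested genes. Ligands were mostly too dim to read, with 8 of 29 tested, 0 higher and 1 lower. Il5, an eosinophil growth factor, went from 307 ± 128 to 136 ± 89.8 (log2 change -0.42, adjusted p = 0.048), with 4 of 5 control and all mdx arrays below the noise level. That call was lost without any of control replicates 1 to 4 or mdx replicates 1, 2, 3 or 5 (adjusted p 0.0604 to 0.115) and with the exact permutation test (adjusted p = 0.132). It was also lost with the replicate number as a block (adjusted p = 0.1), with no filter (0.107) and after scaling to the hybridization controls (-0.20, adjusted p = 0.316). Epo, Gh, Ifnb1 and Ctf1 did not pass, at -0.28, 0.20, 0.16 and -0.12. The interleukin-6 gene Il6 was not tested, with a highest value of 145 on any control and 31.1 on any mdx array.

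Among 17 tested receptors 6 were higher and 2 lower in mdx, with a median of 0.01, beside 16.1% higher and 18.6% lower of all tested genes. Il10rb, the shared chain of the interleukin-10 family receptors, stood at 985, 951, 926, 941 and 763 in control and 1738, 1964, 2570, 2012 and 2513 in mdx, which is 0.97 on the log2 scale (SE 0.10; adjusted p by limma 1.55e-05). Il13ra1, which pairs with the Il4ra protein to form the receptor for interleukin-13, was at 3.29 to 143 in control and 263 to 406 in mdx (log2 change 0.76, adjusted p = 0.000133). It lay below the noise level on 5 control and 4 mdx arrays and passed the filter through the mdx arrays, so the size is not measured above background. Csf2rb2, a beta chain of the interleukin-3 receptor, was called higher at 0.63 (adjusted p = 0.000244), also with 5 control and 3 mdx arrays below the noise level. Csf2rb2 passed the filter through the mdx arrays alone and so had to differ. The groups did not overlap for any of the 3, as for 25.1% of all tested probe sets. The filter fixed this in advance for Csf2rb2 and nearly did so for Il13ra1. Osmr, the oncostatin M receptor and itself a STAT3 target, rose from 353 ± 88.5 to 701 ± 190 (0.56, adjusted p = 0.0055), and its 3 highest mdx arrays were replicates 1, 2 and 5, at 991, 779 and 648. Il7r and Ifnar2 were also called higher, at 0.47 and 0.45, but Il7r was below the noise level on all 10 arrays and Ifnar2 on 5 control and 3 mdx arrays, so these sizes are not measured above background.

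The receptor for leukaemia inhibitory factor, a gp130 partner that acts through STAT3, went the other way. Lifr stood at 1490, 1616, 1572, 1670 and 1784 in control and 863, 753, 912, 759 and 778 in mdx. No array overlapped, and the log2 change was -0.75 (SE 0.08, limma adjusted p = 9.84e-06), though -0.30 (adjusted p = 0.0525) after scaling to the hybridization controls. Its other tested probe set was dim, at 123 ± 74.3 and 145 ± 70.2, and did not pass (0.06, adjusted p = 0.744). Il27ra, a receptor chain of interleukin-27, fell from 6993 ± 205 to 4895 ± 453 (-0.49, adjusted p = 0.000202), a change that turned to 0.08 with that scaling. Il6st, which encodes gp130 itself, was not called by either of its probe sets, with changes of 0.01 and -0.11. The growth hormone receptor Ghr did not pass either, at -0.13 and 0.11.

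**Figure D5:**
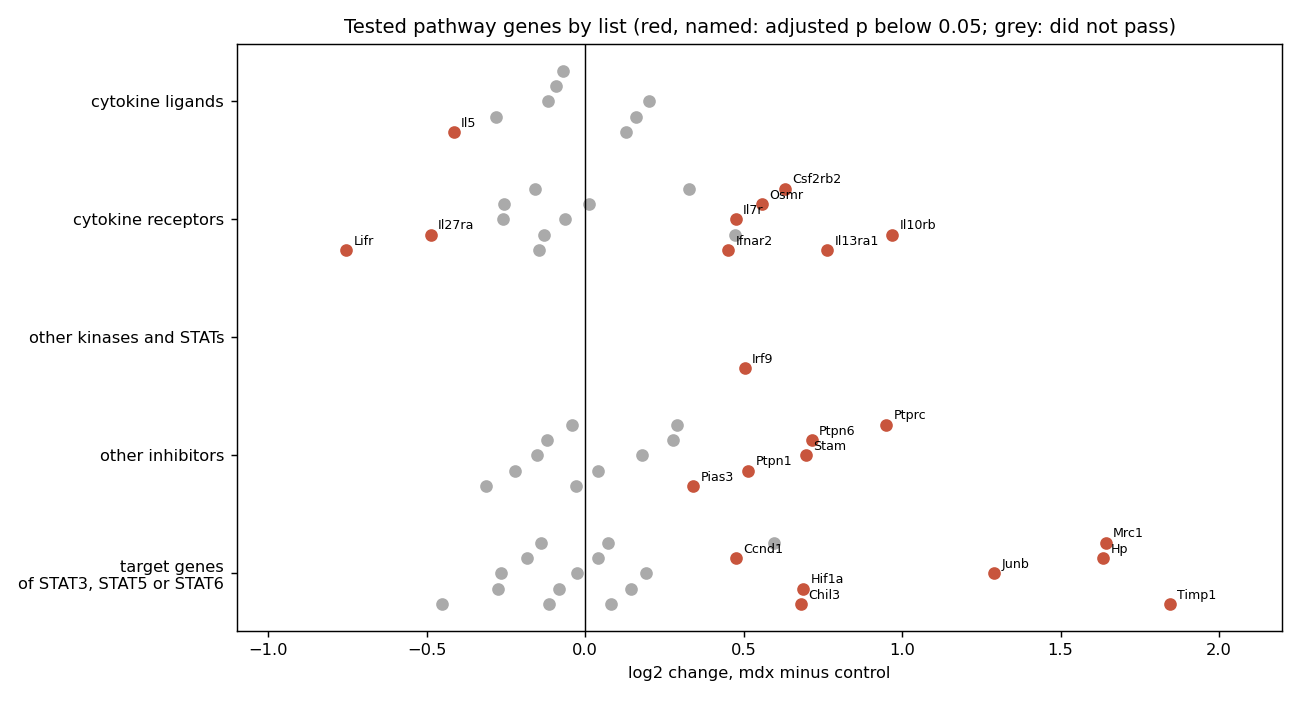
Log2 change, mdx minus control (x axis), of the 62 tested pathway genes in 5 lists, each by its brightest probe set, with genes at an adjusted p below 0.05 in red and named. The vertical offset within a list only separates the points; 19 named points lie to the right of 0 and 3 to the left.

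The list of other inhibitors also holds adaptors that are not inhibitors, such as Stam. Of its 15 tested genes 5 were higher and 0 lower, where 16.1% of all tested genes were higher and 18.6% lower. The limit of the filter given above holds for these counts too. Ptprc, the leukocyte phosphatase CD45, was at -4.88 to 66.2 in control and 212 to 696 in mdx (log2 change 0.95, adjusted p = 0.000284). It passed the filter through the mdx arrays alone and so had to differ. Its other probe sets were too dim to be tested, and limma with no filter gave -0.02 (adjusted p = 0.782) and 0.52 (adjusted p = 0.0103). For the latter, 4 control values were below 0 and set to 0, so their spread was not fully measured. Ptpn6, the phosphatase SHP-1 of blood cells, went from 115 ± 122 to 435 ± 126 (0.71, adjusted p = 0.00456). Ptprc and Ptpn6 both lay below the noise level on 5 control and 2 mdx arrays, so no fold is given. Stam, a JAK-binding adaptor, rose from 518 ± 92.5 to 1077 ± 210 (0.70, adjusted p = 0.000537) and Ptpn1, a phosphatase of JAK2, from 1292 ± 199 to 1997 ± 201 (0.51, adjusted p = 0.00184). Pias3, an inhibitor of STAT3, was called at 0.34 (adjusted p = 0.0465), with 5 control and 4 mdx arrays below the noise level, and the call was lost without any of 7 arrays (control replicates 1, 2 and 5 and mdx replicates 1, 3, 4 and 5, adjusted p 0.0708 to 0.111). Socs1 did not pass (-0.22, adjusted p = 0.238). Of the other kinases and STATs only Irf9, an interferon regulatory factor, was tested, and it rose by 0.50 (adjusted p = 0.0202), a call lost without mdx replicate 1 (adjusted p = 0.0519), with no filter (0.0554) and by the exact permutation test (0.0707).

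Of 21 tested target genes of STAT3, STAT5 or STAT6, 7 were higher and 0 lower, with a median of 0.08. Of all tested genes 16.1% were higher and 18.6% lower. Timp1, the inhibitor of matrix proteases, stood at 1047, 775, 997, 1291 and 759 in control and 4663, 5488, 3056, 3700 and 5746 in mdx, which is 1.85 on the log2 scale (SE 0.16; adjusted p by limma 3.24e-06). Its mdx arrays had the order of Stat3, with replicates 5, 2 and 1 above 4 and 3. Hp, the haemoglobin-binding acute phase protein haptoglobin, was at 778 to 1401 in control and at 3571, 5830, 2675, 3088 and 5236 in mdx (1.63, adjusted p = 3.11e-05). Mrc1 and Chil3, which interleukin-4 induces in macrophages, were both called higher, Mrc1 at least 3.69-fold. Chil3 (log2 change 0.68, adjusted p by limma 0.00361) lay below the noise level on 5 control and 2 mdx arrays, so no fold is given. Of other listed targets Ccl22 did not pass (0.04, adjusted p by limma 0.834), and Ccl17 and Alox15 were below 0 on all arrays and not tested. Arg1 was also too dim to be tested, at 0.24 with no filter (adjusted p by limma 0.0156). Its control mean was -29.3 and its highest control value 27.9. Values below 0 were set to 0 in that fit, so the spread between control arrays was not fully measured. Junb rose by 1.29 (adjusted p = 0.00175), Hif1a by 0.69 and the cyclin gene Ccnd1 by 0.47. Hp, Chil3 and Junb also had mdx replicates 1, 2 and 5 above 3 and 4, while Mrc1, Hif1a and Ccnd1 did not. This order was looked for after the values were seen. Igf1, the growth factor that growth hormone induces through STAT5, counted as not passing at -0.26 (adjusted p = 0.158) by its brightest probe set, while its other probe set was called higher (adjusted p = 0.000113). It was singled out after its values were seen. Mrc1, Timp1, Chil3, Ptprc and Ptpn6 are also made by macrophages or other leukocytes, whose markers were higher in the same arrays, and their part in these rises was not tested.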

How the data were processed

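The deposited table holds, per probe set and array, an intensity that is not log-transformed. The sources used here do not name the authors' software, background correction or scaling. Of the deposited values on each array 19.7% to 23.8% were below 0. The number of arrays limits the precision.

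Values below 0 counted as 0, and 372.4 was added to each deposited intensity before log2. Probe sets above 134.2, the 40th percentile, on 5 or more of the 10 arrays were tested (7612, without the 66 control probe sets). The 5 mdx and 5 control arrays were fitted in limma 3.58.1 (R 4.3.3; lmFit, eBayes with trend), with two-sided p-values adjusted by Benjamini-Hochberg over all 7612. The script was tested on simulated data. The platform annotation gave 1 gene to 10833 probe sets, several to 396 and none to 1193, and the RefSeq table of GRCm38.p6 changed 0 symbols.

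All probe sets of the members are named, of each of 5 pathway lists up to 5 genes with the smallest p, and the 3 probe sets most correlated with each of the 3 members with the smallest p. Il6, Il6st, Ghr, Socs1, Igf1, Osmr, Il7r, Ifnar2, Chil3, Ccnd1, Ccl22, Ccl17, Alox15 and Arg1 stand outside this rule and were chosen after their values were seen. The members and lists were chosen with earlier results of these data known. Alternatives covered the added constant, the filter, the scaling, the test, the replicate block and each array left out.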

Additional observations from a re-analysis of the deposited data

Results flagged for a closer look

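In 8 of 90 groups of 5 arrays examined, for the members and the named genes, 1 array stood apart from the other 4 by Dixon's criterion on the log2 scale, where chance gives about 1 in 20. None of the 8 concerned a member probe set. The array was the lowest of its group for Gh (2327 in mdx replicate 1, others 2632 to 2722), Il10rb (763 in control replicate 5, others 926 to 985), Irf9 (7.88 in control replicate 4, others 163 to 236) and Ptpn1 (945 in control replicate 1, others 1336 to 1447). It was also the lowest for Pias3 (204 in mdx replicate 2, others 355 to 374), Thy1 (904 in mdx replicate 1, others 1090 to 1173) and Smyd2 (1048 in control replicate 3, others 1434 to 1604). It was the highest for Il13ra1 (143 in control replicate 1, others 3.29 to 31.6).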

How the results depend on the processing

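Scaling to the hybridization controls moved the results most, since it shifted the median of all tested probe sets from -0.03 to 0.33. Member probe sets called higher went from 3 to 7 and lower from 1 to 0, and other pathway genes from 19 to 32 and from 3 to 0. Under it the log2 changes of Stat5b (0.116), Socs2 (0.025), Epo (0.098), Ctf1 (0.284), Il27ra (0.082) and Mrps28 (0.055) turned sign. Which scaling is nearer to the levels in the tissue was not tested, and controls added at hybridization cannot measure its RNA content. Members called higher were 1 by the exact permutation test. Other pathway genes called higher were 10 with a filter on the mean over all arrays, which tests fewer dim genes. With 1 array left out, members called higher ranged from 1 to 3 and lower from 1 to 2, and the changes of Stat5a (-0.021 to 0.187) and Jak1 (-0.04 to 0.093) took both signs, neither called. Without leaving out arrays, 110 of the members' values kept direction and call, 5 lost the call, 4 gained it and 2 turned sign. With the replicate number as a block 2238 probe sets were called in place of 2554 and the members' counts stayed at 3 and 1. Same-numbered arrays did not deviate together (correlations -0.16 to 0.04), and 1 of 5 control arrays correlated best with its own number, so the numbers were not taken as a pairing. The median of the values below 0 as the basis of the added constant was chosen after seeing the data and gave 2520 calls.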
